A study of Homo sapiens with 4 samples.

Results

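Exon skipping was examined in the DNAJ co-chaperone genes of 293T cells, a human embryonic kidney line, with and without an antisense oligonucleotide against the small nucleolar RNA SNORD89. The events described are the skipped exon events of genes named DNAJA, DNAJB or DNAJC followed by a number, with a mean of at least 20 junction reads over the 4 libraries. There were 153 such events, on 117 exons of 31 genes, among 54503 events of that depth in the whole table. The family was chosen by the measured inclusion levels of 1 of its exons, in DNAJB14, which differed widely between the sets of libraries, so that difference is described here and not tested. The other 20 DNAJ events lay under the read minimum, and 2 genes, DNAJC22 and DNAJC27, had no deeper event. Just inside the minimum were 2 events of DNAJB14 with means of 21 and 21.25 reads, and just outside it 1 event each of DNAJC19 and DNAJB14 with 19.75 and 19.5 reads.

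Of the 4 libraries, 2 came from cells transfected with 70 nM of a gapmer oligonucleotide against SNORD89, a short modified DNA strand that directs cleavage of the RNA it pairs with. The other 2 came from cells labelled as having had no oligonucleotide. No control oligonucleotide is named in the labels, and whether the untreated cells received the transfection reagent is not clear from them. RNA was taken at 48 hours, and poly(A) RNA was sequenced as pairs of 150 bases. The labels call the libraries of a condition biological replicates. The table compares a first with a second set of 2 libraries, and neither its header nor a label says which set had the oligonucleotide. Directions are therefore given as first set against second set, and the library numbers give only the order within a cell of the table and pair nothing between the sets.

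J-domain proteins, named after the bacterial chaperone DnaJ, bring unfolded proteins to Hsp70 and stimulate its ATPase through a conserved J domain. Class A members keep the domain layout of DnaJ, class B members share part of it, and class C members share only the J domain and serve specialised tasks such as mitochondrial import, clathrin uncoating or ribosome assembly. DNAJB14 and DNAJB12 are anchored in the membrane of the endoplasmic reticulum, where they help Hsp70 in disposing of misfolded membrane proteins. Alternative exons in such genes can add a premature stop codon, and transcripts that carry one are commonly removed by nonsense-mediated decay.

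The exon of DNAJB14 that led to the choice of the family is 56 nt long, so its inclusion shifts the reading frame. It lies at chr4:100845917-100845972 on the minus strand of hg19. By the spacing of its exons it was matched to exon 3 of transcript DNAJB14-204 in GENCODE release 29, which is annotated as a target of nonsense-mediated decay, while the junction that skips it is found in a protein-coding transcript. The reading frame of DNAJB14-204 runs through 22 nt of the exon and stops there. Alternative exons of DNAJC25 and DNAJC5 have the same layout. Their coding stretches, from the first base of the exon through the stop codon, are shown in the direction of transcription because the difference between the forms is whether this stop codon is read. Capitals mark the stop codon, and the sequences are those of the matched GENCODE transcripts.
DNAJB14: agctttatggatattggaacatTGA
DNAJC25: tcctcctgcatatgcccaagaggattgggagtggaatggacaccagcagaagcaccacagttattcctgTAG
DNAJC5: gagggcacTGA

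DNAJB14 (ENSG00000164031.12) showed the widest separation of the sets among the DNAJ genes. Library 1 of the first set had 18 inclusion and 41 skipping reads, and library 2 had 6 and 31. For the second set, library 1 had 15 inclusion and 3 skipping reads, and library 2 had 30 and 0. The inclusion level, the share of the inclusion form after division of the reads by the length of each form, came to 0.242 (95% Wilson interval 0.156 to 0.356) and 0.123 (0.0568 to 0.247) for the first set. For the second set it came to 0.784 (0.530 to 0.921) and 1 (0.850 to 1). Both libraries of the first set thus lay below both of the second, and their intervals did not reach those of the second. The difference in mean level was -0.709, and it ranged from -0.602 to -0.817 when each library was left out in turn. All 4 libraries had fewer than 60 reads, and these intervals, like the others given here, cover counting error only.

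**Figure D1:**
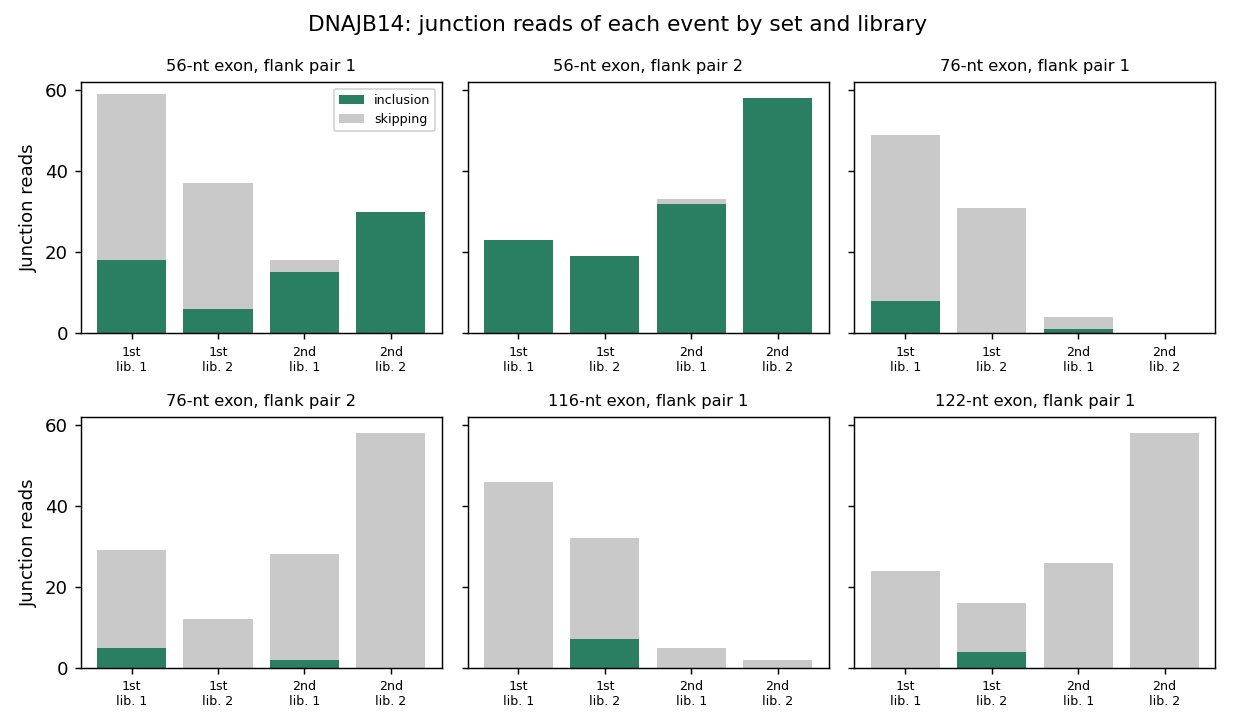
Junction reads (vertical axis) of the 6 DNAJB14 events with at least 20 reads on average, stacked as inclusion (green) and skipping (grey) for each library of the first (1st) and second (2nd) set; flank pairs number the events on 1 exon that differ in their outer exons. Skipping reads of the 56-nt exon in flank pair 1 number 41 and 31 for the first set against 3 and 0 for the second, while the 116-nt exon has 46, 32, 5 and 2 reads in all.

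The separation lay in the skipping reads, which join the outer exons at 100844342 and 100851607. Their counts of 41, 31, 3 and 0 recur in 2 further DNAJB14 events with the same outer exons, on exons of 76 and 122 nt, so these events are not separate evidence. A second event on the 56-nt exon, whose outer exon ends at 100845034, was matched to a processed transcript without coding sequence. Inclusion reads there numbered 23 and 19 for the first set against 32 and 58 for the second, with 1 skipping read in library 1 of the second set. Scaled to 1000000 junction reads of the library, this event held 0.596 and 0.487 reads for the first set against 0.770 and 1.32. The 56-nt exon was thus covered in every library, and the reads of this event were higher in both libraries of the second set.

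An event nearer the 3′ end of DNAJB14 had more reads in the first set, as the skipping junction described above did. The event on the 116-nt exon at chr4:100827195-100827310 held 46 and 32 reads for the first set against 5 and 2 for the second. Scaled to 1000000 junction reads, the values are 1.19 and 0.820 against 0.117 and 0.0455. The event passed the minimum of 20 reads, with a mean of 21.25, only through its reads in the first set. The separation in depth is therefore description only, and no test of depth was made. Inclusion of this exon rested on 7 reads in library 2 of the first set (level 0.136) and on none in the other libraries. With 5 and 2 reads, the second set allows levels up to 0.302 and 0.519, so no difference was detectable at this depth.

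The remaining DNAJB14 events were thin. The 76-nt exon at chr4:100849699-100849774 was at 0.121, 0, 0.0485 and 0 with its deeper pair of outer exons, in the order first set library 1 and 2, second set library 1 and 2. The 122-nt exon at chr4:100848874-100848995 was at 0, 0.155, 0 and 0 with 24, 16, 26 and 58 reads. In both the sets overlapped. With its other outer exons the 76-nt exon was at 0.114, 0 and 0.181, without reads in library 2 of the second set. The 5 DNAJB14 events under the read minimum had means of 3.25 to 19.5 reads. The thinnest lies on the exon by which the family was chosen, with other outer exons. It stood at 0.195, 1, 1 and 1 from 4, 2, 2 and 5 reads, so library 2 of the first set equalled the second set. Its difference of -0.402, listed by the authors at an FDR of 0.219, was 0 without library 1 of the first set. Differences in the others were -0.845, -0.5, 0.133 and 0.0253. In the event at 0.133, the 122-nt exon beside the 76-nt exon had 12 inclusion reads and no skipping reads in library 2 of the second set. It had 1 inclusion read in each library of the first set.

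Across the family, few events passed the authors' test. An event is called here where the authors' deposited table gives a false discovery rate (FDR) under 0.05 and the difference is at least 0.1. That held for 3 of the 153 events and for 2.71% of all tested events, and the 3 include the DNAJB14 exon by which the family was chosen. DNAJC14 was higher and DNAJB14 and DNAJC16 were lower in the first set, where 1.34% of all tested events were called higher and 1.37% lower. With no minimum difference, 6 events had an FDR under 0.05 in the authors' deposited table, as had 5.72% of all tested events. A difference of at least 0.1, whatever the test, was found in 6 events and in 7.13% of all tested events. Of these 6, a 74-nt exon of DNAJC19 and a 199-nt exon of DNAJC7 had sets that overlapped, and for the 76-nt exon of DNAJB14 this cannot be said, since no reads fell on it in library 2 of the second set. In the DNAJC7 event, with a mean of 35.75 reads, the difference of -0.147 was 0.00701 without library 2 of the second set, and in the DNAJC19 event that of 0.119 was 0.0408. The sets did not overlap for 31 events (20.3%), against 22.8% of all tested events. The median absolute difference was 0.00734 in the family and 0.0114 over all tested events.

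In most of the events the exon was included far more often than it was skipped. Mean inclusion was above 0.95 in 105 of the 153 events (68.6%, against 66.1% of all tested events), under 0.05 in 22 (14.4% against 9.30%) and between these bounds in 26 (17.0% against 24.6%). Among those 26, the 3 called events compare with 11% of all tested events in the same range, and the sets did not overlap in 11, against 33.3%. A length that preserves the frame, a multiple of 3, was found in 37 of the 117 exons (31.6%), against 40.3% of all tested exons.

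A quasi-binomial model, in which the scatter among libraries sets the error, gave no DNAJ event with an adjusted p-value under 0.05 and a difference of at least 0.1, and none in the whole table (0% of tested events). At an unadjusted p under 0.05 it gave 16 of the 153, against 8.64% of all tested events. With limma, applied to log2 ratios of the inclusion over the skipping reads, 0 events passed the adjustment and 10 had an unadjusted p under 0.05, against 4.87% of all tested. On simulated data, 200 of 54503 events, all of intermediate inclusion, were changed by 0.3 in level. The quasi-binomial model recovered 51 of them at about the scatter of these libraries, so a change of this size was usually missed there. Events near full inclusion or full skipping, as most DNAJ events are, were not among those changed.

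**Figure D2:**
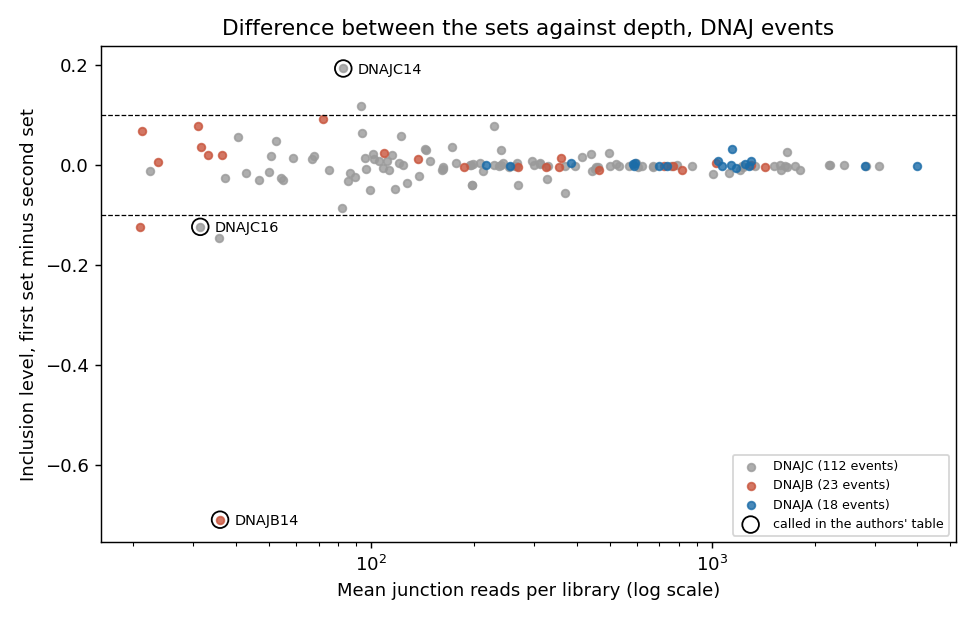
Difference in mean inclusion level, first set minus second set (vertical axis), against the mean junction reads per library (log scale) for the 153 DNAJ events, coloured by class; dashed lines mark a difference of 0.1 and rings the 3 events called in the authors' table. All 18 DNAJA events lie between the dashed lines, and DNAJB14 lies apart at -0.709.

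In the DNAJ events, wide gaps between the libraries of a set were about as common in both sets. Levels differed by more than 0.1 between the 2 libraries of the first set in 9 of the 153 events (5.88%) and between those of the second set in 8 (5.23%), against 7.72% and 12.9% of all tested events. Among the 25 DNAJ events of mean inclusion between 0.05 and 0.95 with reads in every library, library 2 of the second set was the highest or the lowest in 18, and the other libraries in 7 to 14. This was not counted over all tested events, so it has no baseline. Junction reads on the 153 events came to between 81946 and 89282 per library, or 1912 to 2185 on the scale of 1000000 junction reads.

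The 2 other called events rested on few reads of the rarer form. DNAJC14 (ENSG00000135392.11), a protein of the endoplasmic reticulum membrane, has a 148-nt exon at chr12:56223273-56223420 on the minus strand, matched to exon 2 of DNAJC14-203, outside its coding sequence. With its outer exon starting at 56224480, the first set stood at 1 (0.916 to 1) and 0.958 (0.884 to 0.985). The second set stood at 0.918 (0.789 to 0.971) and 0.653 (0.468 to 0.801). Skipping reads numbered 0, 3, 3 and 8, of 84, 139, 70 and 38 reads. Both libraries of the first set were above those of the second by a difference of 0.193, for which the authors' deposited table gives an FDR of 0.0110 against an adjusted p of 0.536 by the quasi-binomial model fitted with limma's moderation. Without library 2 of the second set the difference was 0.0609.

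The same DNAJC14 exon had a second event that differs in 1 outer exon, which starts at 56223960. Its skipping reads came in the reverse order, 8, 3, 1 and 0, with nearly the same inclusion reads. Levels of 0.842 and 0.958 stood against 0.971 and 1 for the second set. For this difference of -0.0857 the authors' deposited table gives an FDR of 0.0460, and it was -0.0280 without library 1 of the first set. The sets were thus separated in opposite directions in the 2 events on this exon.

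DNAJC16 (ENSG00000116138.8) has a 272-nt exon at chr1:15891677-15891948, matched to a processed transcript without coding sequence. It was rarely included: inclusion reads numbered 1 and 2 for the first set against 4 and 7 for the second, of 28, 48, 13 and 37 reads. The first set stood at 0.0182 (0.00318 to 0.0972) and 0.0213 (0.00578 to 0.0751), and the second at 0.182 (0.0677 to 0.405) and 0.104 (0.0498 to 0.206). For the difference of -0.123 the authors' deposited table gives an FDR of 0.0197, against an adjusted p of 0.549 by the quasi-binomial model with limma's moderation. Without library 1 of the second set, which had 13 reads, it was -0.0847, and without the correction for form lengths -0.210.

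**Figure D3:**
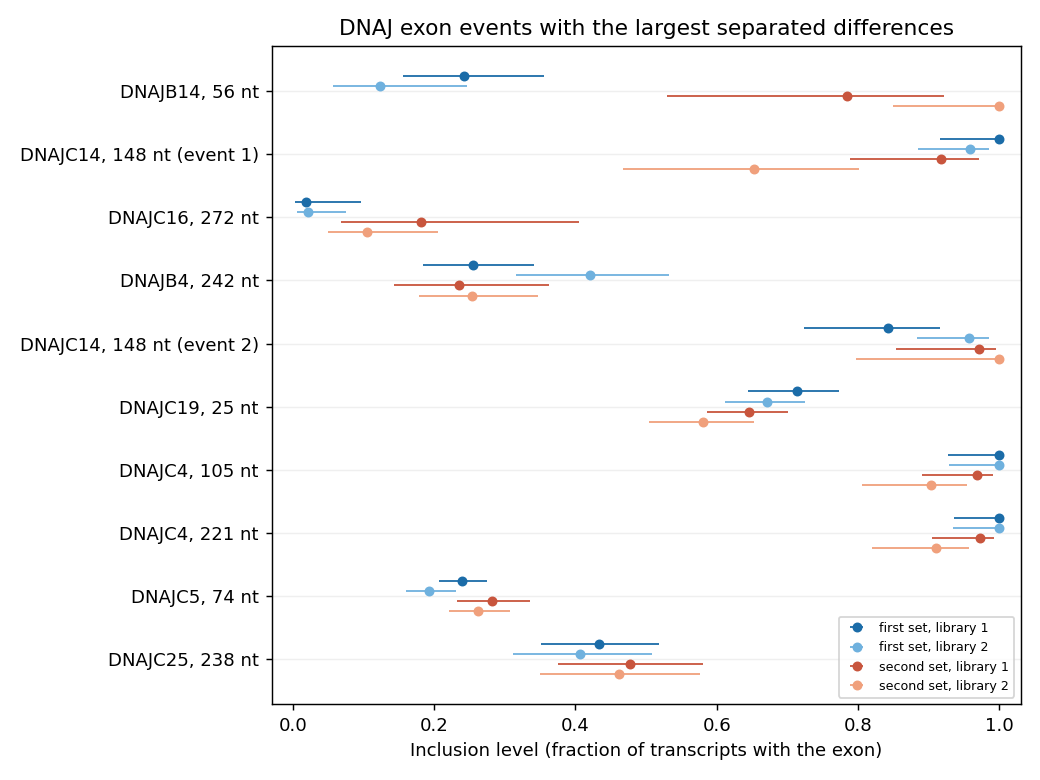
Inclusion level of each library (points) with 95% Wilson intervals (bars) for the 10 DNAJ events with the largest differences among those whose sets do not overlap, ordered by the size of the difference; DNAJC14 appears with both of its outer exons. In DNAJB14 the intervals of the sets are apart, whereas in DNAJC25 and DNAJC5 the levels of the 4 libraries lie within 0.1 of each other.

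Below a difference of 0.1, 3 further DNAJ events had an FDR under 0.05 in the authors' deposited table, counting the second DNAJC14 event. DNAJC8, a protein found with the spliceosome, has a 122-nt exon at chr1:28556642-28556763 in a non-coding processed transcript. From 879 to 1175 reads, it was included at 0.0120 and 0.0136 against 0.0195 and 0.0398 for the second set. The authors' deposited table gives this exon an FDR of 0.00311, and the difference of -0.0168 became -0.00669 without library 2 of the second set. In DNAJC4, the coding 105-nt exon at chr11:63999982-64000086 was at 1 in both libraries of the first set, against 0.968 and 0.903. The authors' deposited table gives its difference of 0.0646 an FDR of 0.0499. A 221-nt form with the same 3′ end had the same 0, 0, 2 and 6 skipping reads, so both events share their evidence. Without library 2 of the second set, the differences of the 2 forms were 0.0320 and 0.0278.

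Class A genes, the closest in layout to DnaJ, held 18 events on 14 exons and none was called, against 2.71% of all tested events. Only 1 of the 18 was of intermediate inclusion, so with so few events the lack of calls does not set class A apart. DNAJA1 and DNAJA2 work in the cytosol and DNAJA3 in mitochondria. Every DNAJA1 and DNAJA2 event was almost fully included or skipped, with mean levels at or above 0.995 or at 0.000623. Their differences lay between -0.00489 and 0.00500, from means of up to 3979 reads.

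The 1 alternative exon of class A was in DNAJA3 (ENSG00000103423.9), where the exon before the last of DNAJA3-201 carries that transcript's stop codon. It is 117 nt long, at chr16:4504812-4504928, and DNAJA3 transcripts that skip it are annotated as both coding and decay targets. The stretch from its first base through the stop codon (capitals) is shown because the skipping form lacks it.
DNAJA3: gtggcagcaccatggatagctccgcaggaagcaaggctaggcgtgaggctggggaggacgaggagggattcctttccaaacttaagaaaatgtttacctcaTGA

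The DNAJA3 exon was deep and its libraries close. With 1048 to 1301 reads per library, inclusion stood at 0.294 (0.270 to 0.320) and 0.286 (0.262 to 0.312) for the first set. For the second it stood at 0.262 (0.239 to 0.286) and 0.252 (0.231 to 0.273). The first set was higher in both libraries by 0.0332. The event did not pass: the authors' deposited table lists an FDR of 0.696, against an adjusted p of 0.578 by the quasi-binomial model with limma's moderation. The mean level over the 4 libraries was 0.273.

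Among class B genes, with 23 events on 19 exons, DNAJB14 was the 1 called (4.35%, against 2.71% of all tested events). That event is the exon by which the family was chosen, so the count is no separate result. DNAJB6, known for holding back protein aggregation, has isoforms with different ends, and its coding 207-nt exon at chr7:157202489-157202695 is coding in DNAJB6-201. From 691 to 883 reads, the exon was included at 0.956 and 0.932 for the first set against 0.952 and 0.956 for the second. A 5735-nt form with the same start, found in a decay transcript, shared its skipping reads of 20, 31, 17 and 18. Differences of -0.00989 and -0.0105 were smaller than the spread in the first set.

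DNAJB4, a cytosolic relative of DNAJB1, has a 242-nt exon at chr1:78470764-78471005 that was not matched to release 29. With 1 pair of outer exons and 42 to 91 reads it stood at 0.255 and 0.421 against 0.235 and 0.254 for the second set. The difference of 0.0932 was 0.0105 without library 2 of the first set, and the authors' deposited table lists an FDR of 0.773. With another outer exon it was at 0.755, 0.741, 0.455 and 1, so the 2 libraries of the second set enclosed those of the first. The 7 tested events of DNAJB1, DNAJB2, DNAJB11 and DNAJB12, in the cytosol and the endoplasmic reticulum, were nearly always included, at mean levels of 0.983 or more.

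Class C held 112 events on 84 exons of 20 genes, and 19 of the events had a mean inclusion between 0.05 and 0.95. DNAJC19, a subunit of the motor that pulls proteins into mitochondria, has 2 forms of exon 4 that begin at the same base. The short form ends after 25 nt and the long one after 80 nt, both wholly coding, and the transcript that skips them is annotated as a decay target. They are shown because their levels differ so widely, with the 55 nt that the long form adds in capitals.
DNAJC19, 25 nt: gccttcagtggtggctattatagag
DNAJC19, 80 nt: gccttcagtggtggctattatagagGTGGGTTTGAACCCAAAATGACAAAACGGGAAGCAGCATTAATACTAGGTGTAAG

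The 80-nt form (chr3:180704731-180704810, minus strand) stood at 0.940 and 0.915 against 0.929 and 0.945 for the second set, from 1289 to 1868 reads. Both forms were set against the same skipping reads of 51, 81, 88 and 65, so their levels are not shares of 1 total. The 25-nt form (chr3:180704786-180704810) was at 0.713 and 0.671 against 0.645 and 0.580. The sets did not overlap, and the authors' deposited table lists the difference of 0.0792 at an FDR of 0.409. The difference was 0.0467 without library 2 of the second set. Another event on the 25-nt form lay just under the read minimum, with a mean of 19.75 reads. For it the authors' deposited table lists a difference of 0.484 at an FDR of 0.0577. Exon 2 of DNAJC19-201, 52 nt at chr3:180705966-180706017, was at 0.937, 0.957, 0.937 and 0.904 from at least 1405 reads, and the sets overlapped.

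DNAJC2, which binds ribosomes and helps nascent chains to fold, has a 47-nt exon at chr7:102967779-102967825 on the minus strand. Its inclusion form was matched to decay and retained-intron transcripts, and the skipping form to coding and retained-intron ones. The whole exon is coding in DNAJC2-202, and its length of 47 nt shifts the frame. It is printed as 1 of the deepest alternative exons of the class.
DNAJC2: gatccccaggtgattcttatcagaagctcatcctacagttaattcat

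Of 570, 501, 330 and 365 reads on the DNAJC2 exon, inclusion came to 0.195 (0.167 to 0.227) and 0.169 (0.141 to 0.202) for the first set. For the second it came to 0.211 (0.173 to 0.255) and 0.110 (0.0842 to 0.142). The libraries of the second set thus enclosed those of the first. Without library 2 of the second set the difference turned from 0.0218 to -0.0289.

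In DNAJC5, the cysteine string protein of secretory vesicles, the 74-nt exon at chr20:62562462-62562535 whose coding stretch is printed above stood at 0.240 (0.208 to 0.275) and 0.193 (0.160 to 0.231) for the first set. For the second it stood at 0.281 (0.232 to 0.336) and 0.262 (0.221 to 0.308), with 249 to 508 reads per library. Both libraries of the first set were lower, with a difference of -0.0554 that the authors' deposited table lists at an FDR of 0.365. In DNAJC25, a membrane-spanning member, the 238-nt exon at chr9:114405137-114405374 was at 0.433 and 0.406 against 0.477 and 0.462, from 76 to 134 reads. The authors' deposited table lists its difference of -0.0495 at an FDR of 1, and the intervals of all 4 libraries overlapped.

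Other DNAJ exons were matched to the same transcript classes as the DNAJB14 exon. In 17 events, on 17 exons of 11 genes, the inclusion form was matched to decay transcripts alone and the skipping form to at least 1 protein-coding transcript. They made up 11.1% of the DNAJ events and 4.0% of all tested events, and no test of this share was made. A length divisible by 3 was found in 1 of the 17, against 28.0% of such events in the whole table. This group was formed after the DNAJB14 values were known.

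**Figure D4:**
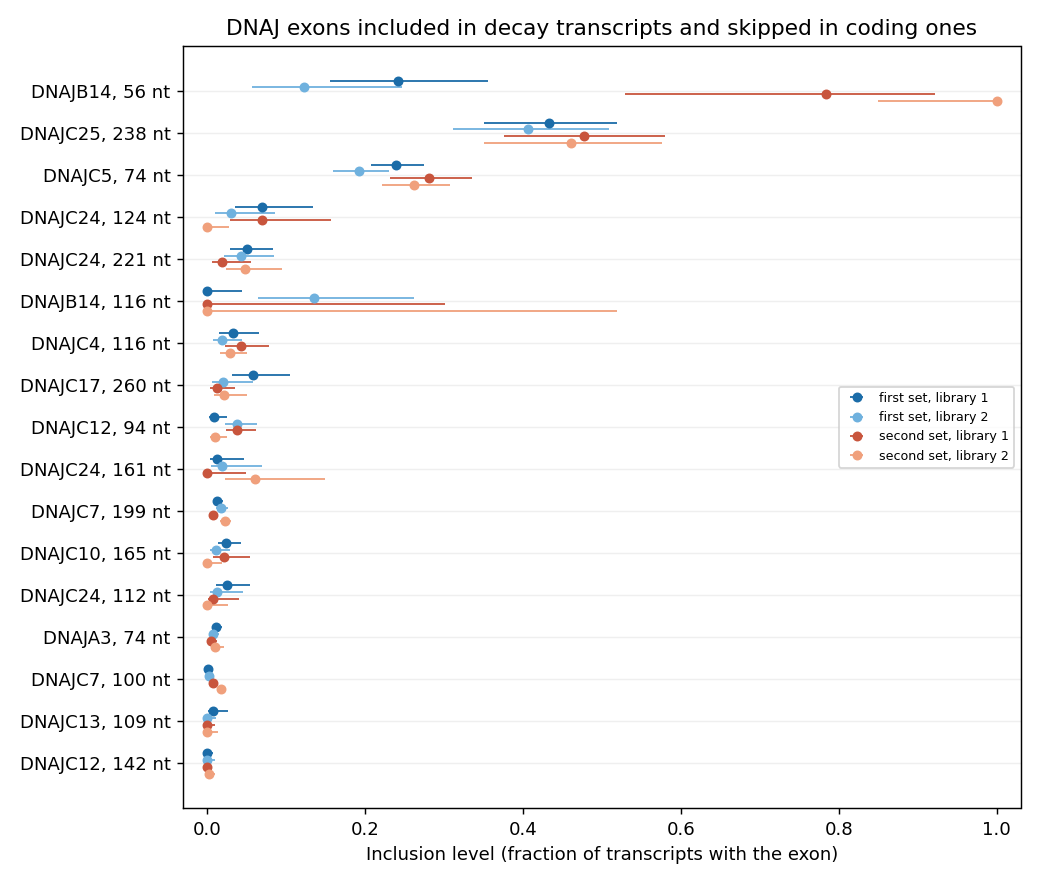
Inclusion level by library (points) with 95% Wilson intervals (bars) for the 17 DNAJ exons found in decay transcripts when included and in coding transcripts when skipped, ordered by mean level. DNAJB14, DNAJC25 and DNAJC5 have mean levels above 0.05, and the other 14 lie at or below it.

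Of the 17, 14 (82.4%) had a mean inclusion of 0.05 or less, against 62.2% of such events in the whole table. The median was 0.0240, close to the 0.0235 of such events in the whole table. DNAJB14 was the 1 called, where 2.34% of such events in the whole table were called. The differences of the 17 were split, with 8 lower and 9 higher in the first set, and 13 were smaller than 0.03. DNAJC7, a cytosolic protein that also binds Hsp90, had the 2 deepest of these exons. Its 100-nt exon at chr17:40139613-40139712 had 3 and 5 inclusion reads for the first set against 17 and 46, of 929 to 1573 reads. Its levels of 0.00169, 0.00323, 0.00813 and 0.0177 put both libraries of the first set below the second, by -0.0105. The authors' deposited table lists an FDR of 0.669, and the adjusted p was 0.396 by the quasi-binomial model with limma's moderation. Its 199-nt exon at chr17:40155377-40155575 was at 0.0130, 0.0177, 0.00759 and 0.0225, and the sets overlapped.

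DNAJC24, needed for the diphthamide modification of elongation factor 2, had 4 such exons, of 112, 124, 161 and 221 nt. In these events the levels lay between 0 and 0.0705 in all 4 libraries, and in 3 of the 4 the sets overlapped. Another event on the 221-nt exon lay under the read minimum. The authors' deposited table lists it with a difference of -0.218 at an FDR of 0.0243, and it is the call added when no read minimum is set. DNAJC12, a partner of the aromatic amino acid hydroxylases, had 2, of 94 and 142 nt. The 94-nt exon stood at 0.00872 and 0.0386 against 0.0385 and 0.0101, so each set held both a low and a high library. DNAJC10, a reductase of the endoplasmic reticulum, had 1 of 165 nt at 0.0245, 0.0117, 0.0215 and 0. The 116-nt exon of DNAJB14 described above is also among the 17. In the remaining 4, of DNAJA3 (74 nt), DNAJC4 (116 nt), DNAJC13 (109 nt) and DNAJC17 (260 nt), levels lay between 0 and 0.0581 and the sets overlapped.

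The partners of the DNAJ proteins were set beside them. A list of 38 genes of the Hsp70 and Hsp90 system had tested events in 31, with 159 events in all. None of the 159 was called from the authors' deposited table in either direction, against 2.71% of all tested events. Of the 159, 14 (8.81%) had a mean inclusion between 0.05 and 0.95, against 24.6% of all tested events, and in that range 11% of all tested events were called. An FDR under 0.05 is given for 4 of the 159 in the authors' deposited table, against 5.72% of all tested events. Their median absolute difference was 0.00197, against 0.0114 over all tested events, and their median depth was 1036 reads against 190. By the quasi-binomial model 12 had an unadjusted p under 0.05 (7.55%, against 8.64% of all tested events) and 0 an adjusted one. By limma 5 had an unadjusted p under 0.05, against 4.87% of all tested events, and 0 an adjusted one.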

How the data were processed

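Poly(A) RNA-seq of 4 libraries of 293T cells was analysed from 1 deposited table. It lists skipped exons in the rMATS layout, per the file headers, with junction reads only, and per the submitters' processing notes cutadapt and STAR were used on hg19; versions and the annotation release are not given in the sources used here. Inclusion and skipping reads are whole-number counts, 2 libraries to a cell. The difference in inclusion level is a score deposited by the authors, and the p-value and FDR are the authors' deposited rMATS values.

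Levels, differences and intervals were recomputed from the reads with Python 3.11.15. The quasi-binomial model was fitted to 54503 events, with dispersion moderated by limma 3.58.1 in R 4.3.3 and never set under 1, and Benjamini-Hochberg adjustment over all of them. Limma on log2 ratios used a pseudocount of 0.5. The model was tested on simulated data. Annotation comes from GENCODE release 29 (GRCh38), matched by the spacing of 3 consecutive exons of a transcript: 116 of 153 DNAJ events matched. No position was converted between builds. Members, lists and naming rule were chosen with earlier results of these data known. Named were called events, DNAJB14 events, the 10 largest separated differences, events with a quasi-binomial p under 0.05 and a difference of at least 0.1, and the 4 deepest events between 0.05 and 0.95 in each class; other exons were named after their values were seen.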

Additional observations from a re-analysis of the deposited data

How the results depend on the processing

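The count of 3 called DNAJ events was 1 with a minimum of 50 reads, where DNAJC14 was left and DNAJB14 dropped out. It was 1 with a minimum difference of 0.2 and 1 with an FDR under 0.01, where DNAJB14 was left. With a minimum difference of 0.05 the count was 5. These changes follow from the thresholds. It was 3 or 4 with a minimum of 10 reads, without a read minimum, with 1 event per exon and with sets that must not overlap. With each library left out in turn, and the FDR of the full table kept, it ranged from 2 to 3: the DNAJC14 difference fell to 0.0609 without library 2 of the second set, and the DNAJC16 difference to -0.0847 without library 1 of that set. The count of 0 by the quasi-binomial model was 0 in each of its 8 alternatives, which at its power says nothing about stability; the planned edgeR alternative was not run. The count of 0 for the Hsp70 and Hsp90 system was 0 in each of its 12 alternatives. The DNAJB14 difference of -0.709 was -0.683 without the correction for form lengths and -0.721 with reads summed within a set. No paired analysis was possible because the libraries in the table's cells carry no replicate numbers. Depth limits all 3 calls: the libraries had 18 to 59 reads in DNAJB14, 13 to 48 in DNAJC16 and 38 to 139 in DNAJC14.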
